A study of Mus musculus with 12 samples.

Results

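The 10 genes described here make bile acids in the liver, conjugate them, take them up from blood, or sense them and feed back on their synthesis. They were chosen by gene symbol, with earlier results of these data known, out of 18539 genes listed in any of the 3 deposited tables. All 10 were listed for hepatocytes and adipocytes and 6 for C2C12 cells. The enzymes were Cyp7a1, Cyp8b1, Cyp27a1 and Cyp7b1, the conjugating enzymes were Slc27a5 and Baat, the uptake transporter was Slc10a1, and the sensing and feedback genes were Nr1h4, Nr0b2 and Fgfr4.

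The study asked how vitamin D metabolites act on lipid genes of cells exposed to olanzapine, an antipsychotic drug that is associated with dyslipidemia. There were 12 RNA libraries, 1 for each of 4 treatments in hepatocytes, adipocytes and C2C12 cells. In the co-treated cultures calcifediol (10 μM) or calcitriol (0.1 μM) was given for 24 h, and then together with olanzapine (1 μM) for another 12 h. In the olanzapine cultures vehicle for 24 h preceded the drug for 12 h, and the vehicle cultures had 36 h of vehicle. Calcifediol is the circulating 25-hydroxylated form of vitamin D3, and calcitriol is the hormone made from it by a further hydroxylation. Their doses differed 100-fold, so their values are given side by side and the metabolites are not compared with each other. Hepatocytes came from male C57BL/6J mice of 6 to 8 weeks and were kept in culture medium without serum, and each condition had 1 library of cultured cells. Adipocytes were preadipocytes of neonatal C57BL/6J pups differentiated in culture, and C2C12 is an established mouse muscle cell line, differentiated before treatment. No treatment had a second library in the same cell type, so no difference between treatments has a replicate check, and the intervals below cover counting error only. Fewer cells that express a gene and less RNA of it per cell cannot be told apart in such libraries.

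Bile acids are the end products of cholesterol breakdown in hepatocytes. The classic route starts with Cyp7a1, which sets the rate, and Cyp8b1 directs its products towards cholic acid, while the alternative route starts with Cyp27a1 and continues with Cyp7b1. Bile acids returning to the liver bind the receptor FXR (Nr1h4), which induces the repressor SHP (Nr0b2), and intestinal FGF15 acts on hepatocytes through FGFR4 with its coreceptor beta-klotho. Both arms lower transcription of Cyp7a1 and Cyp8b1 in the intact animal.

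Promoter sequences (300 bases each, GRCm38.p6, RefSeq) were matched for 6 of the 10 genes: Cyp8b1, Cyp27a1, Nr1h4, Nr0b2, Slc10a1 and Fgfr4, with 2 windows for Slc10a1. Cyp7a1, Cyp7b1, Slc27a5 and Baat had no entry. The windows were searched on both strands for 6 motifs of nuclear receptors. CAAAGTCCA, a motif bound by HNF4A, was in the window of Cyp8b1 and in 0.475% of the 32851 promoters. It is shown because Cyp8b1 was called lower with both co-treatments below, each set against olanzapine alone. A link between the motif and these ratios was not tested. The 6-base core AGGTCA was in 16.3% of promoters, in the window of Nr1h4 and in 1 of the 2 windows of Slc10a1. The Slc10a1 window that holds it and is printed below lies inside the gene, and the window at the outer start had none of the 6 motifs. The inverted repeat that FXR can bind, AGGTCA and TGACCT with any 1 base between them, was in 0.00913% of promoters. The direct repeat that the vitamin D receptor can bind, AGGTCA followed by AGGTCA after any 3 bases, was in 0.00609%. The same repeat with 1 base between was in 0.0396%, and CAAGGTCA, a site of the receptor NR5A2, in 1.56%. These 4, each of which holds the core AGGTCA, had no match in the 7 windows. In the sequences below, read 5′ to 3′ on the strand of the gene, capitals mark CAAAGTCCA in Cyp8b1 (chr9:121916256-121916555, minus strand) and AGGTCA in Slc10a1 (chr12:80968030-80968329, minus strand).
Cyp8b1: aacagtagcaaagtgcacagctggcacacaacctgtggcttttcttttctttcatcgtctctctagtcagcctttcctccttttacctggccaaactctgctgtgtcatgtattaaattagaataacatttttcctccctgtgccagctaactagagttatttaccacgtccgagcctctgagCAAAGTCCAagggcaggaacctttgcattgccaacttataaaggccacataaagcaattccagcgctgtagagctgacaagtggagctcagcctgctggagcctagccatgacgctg
Slc10a1: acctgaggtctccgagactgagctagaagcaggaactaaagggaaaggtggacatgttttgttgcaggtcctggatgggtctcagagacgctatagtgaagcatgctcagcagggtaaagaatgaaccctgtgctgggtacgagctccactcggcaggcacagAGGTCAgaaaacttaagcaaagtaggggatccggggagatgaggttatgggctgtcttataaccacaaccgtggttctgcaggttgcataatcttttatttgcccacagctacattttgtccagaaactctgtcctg

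Total counts were 18325297 to 19348338 in the 4 hepatocyte libraries and 15641434 to 18401972 in the other 8. All 10 hepatocyte markers were present in each hepatocyte library. Their summed level was 77100 CPM (counts scaled to the total of the library) with olanzapine and calcifediol, 77900 CPM with olanzapine and calcitriol, 82300 CPM with olanzapine and 78900 CPM with vehicle. The hepatocyte library of olanzapine and calcitriol stood apart in some transcripts of fat and connective tissue. It had 33 counts of Adipoq, an adipocyte hormone, against 0 in the olanzapine library, and 253 counts of Col3a1, a fibrillar collagen, against 10. Fabp4 and Cidec, also adipocyte markers, were instead highest with olanzapine and calcifediol, at 64 and 5.32 CPM. With olanzapine and calcitriol they had 60.1 and 4.39 CPM. Adipoq, Plin1, Retn, Cfd, Col1a1 and Col3a1, 6 genes picked after their values were seen, were compared with adipocytes. Their levels in the hepatocyte calcitriol library were 0.0866% to 0.158% of those in the adipocyte library of the same treatment. At 0.158%, 0.346 counts of Cyp27a1 and 0.34 counts of Cyp7b1 would be expected from that share, and 0 counts of each of the other 8 genes.

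In hepatocytes the 10 genes spanned a wide range of levels. On the TPM scale, which corrects for transcript length, Cyp27a1 was highest with 171 to 181 TPM over the 4 libraries, followed by Slc27a5 with 97.8 to 107 TPM. Nr1h4 (70.9 to 87.6 TPM) and Baat (56.9 to 89.2 TPM) came next, and their ranges overlapped. Cyp7b1 had 25 to 29.8 TPM. Slc10a1 (8.22 to 13.4 TPM) and Fgfr4 (6.49 to 9.52 TPM) overlapped below it. The classic route was near the bottom, with Cyp7a1 at 1.49 to 4.62 TPM and Cyp8b1 at 0.544 to 2.7 TPM, and Nr0b2 was lowest with 0.145 to 0.28 TPM. The starting enzyme of the alternative route therefore stood above that of the classic route in every hepatocyte library. The ratio of Cyp27a1 to Cyp7a1 in TPM was 114 with olanzapine and calcifediol, 61.3 with olanzapine and calcitriol, 39.2 with olanzapine and 80.1 with vehicle.

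**Figure D1:**
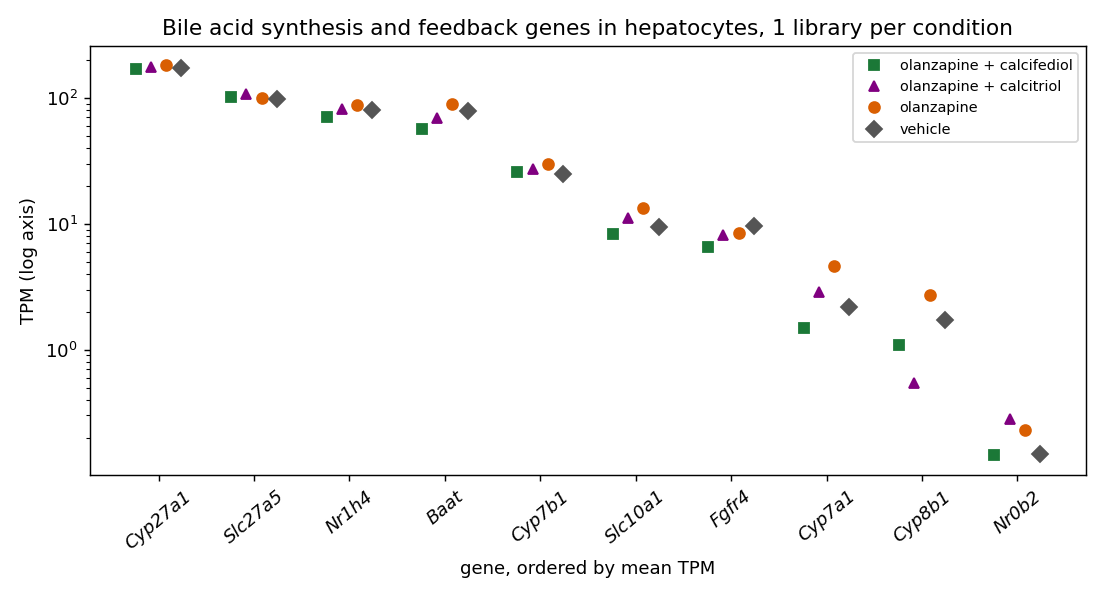
TPM (log axis) of the 10 genes in the 4 hepatocyte libraries, 1 point per library, ordered by mean TPM. Points of Cyp27a1 lie between 171 and 181 TPM, while those of Cyp7a1 spread over 1.49 to 4.62 TPM and those of Cyp8b1 over 0.544 to 2.7 TPM.

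The 3 comparisons between hepatocyte libraries covered the 10963 genes that reached 1 TPM in some hepatocyte library. The first set olanzapine against vehicle, and the other two set a co-treatment against olanzapine alone, so the olanzapine library takes part in all of them. A gene was called where the ratio of CPM was at least 2-fold and the Audic-Claverie test, which compares the reads of 2 libraries and not the treatments, gave a false discovery rate (FDR) of at most 0.05. Nr0b2 was under the filter, and the other 9 genes were tested. With olanzapine against vehicle 0.356% of all genes were called and 1 of the 9, Cyp7a1, which was higher. With calcifediol added to olanzapine 0.566% of all genes were called and 2 of the 9, Cyp7a1 and Cyp8b1, which were lower. With calcitriol added to olanzapine 0.702% of all genes were called and 1 of the 9, Cyp8b1, which was lower. At a fold of at least 2 without the FDR the same numbers of the 9 genes passed, 1, 2 and 1, while 0.894%, 1.06% and 1.1% of all genes did.

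Cyp7a1 (gene 13122, chr4:6265612-6275632, minus strand) was the gene of the list that was called higher with olanzapine. Its counts were 63 with olanzapine and calcifediol, 116 with olanzapine and calcitriol, 171 with olanzapine and 87 with vehicle. In CPM this was 3.28, 6, 9.33 and 4.63 in the same libraries. The olanzapine library was the highest, the calcifediol library was the lowest, and the intervals of these 2 libraries, 7.99 to 10.8 and 2.52 to 4.20 CPM, did not overlap. The log2 ratio of olanzapine to vehicle was 1.01 (95% exact interval 0.63 to 1.40), a 2.01-fold higher level that lay just past the threshold. With a pseudocount of 5 counts in place of 0.5 it was 0.97 and the call was lost. With calcifediol added to olanzapine the log2 ratio was -1.50 (-1.95 to -1.08), a 2.83-fold lower level. With calcitriol added it was -0.64 (-0.99 to -0.29), which was not called at 2-fold and was called at 1.5-fold, as were 1.6% of all genes.

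Set against vehicle instead, the log2 ratio of Cyp7a1 was -0.49 (-0.99 to -0.01) for olanzapine and calcifediol, where 0.593% of all genes were called, and 0.37 (-0.04 to 0.79) for olanzapine and calcitriol. Neither was called, so the calcifediol call rested on the olanzapine library as reference.

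Cyp8b1 (gene 13124, chr9:121914356-121916305, minus strand), whose promoter is printed above, had the lowest ratio of the 9 genes with calcitriol added to olanzapine, and the lowest but Cyp7a1 with calcifediol added. It had 24 counts with olanzapine and calcifediol, 12 with olanzapine and calcitriol, 56 with olanzapine and 37 with vehicle. In CPM these were 1.25, 0.62, 3.06 and 1.97. Both co-treated libraries were below both others. The log2 ratio was -2.25 (-3.34 to -1.38) with calcitriol added to olanzapine, a 4.77-fold lower level, and 0.073% of all genes had a lower ratio. With calcifediol added to olanzapine it was -1.27 (-2.04 to -0.57), a 2.41-fold lower level. At an FDR of 0.001 the calcifediol call was lost and the calcitriol call was kept. Olanzapine against vehicle gave 0.63 (0.01 to 1.27), which was not called. Against vehicle Cyp8b1 was called lower with olanzapine and calcitriol, at -1.63 (-2.74 to -0.70), where 0.538% of all genes were called. With olanzapine and calcifediol it was not called against vehicle, at -0.64 (-1.46 to 0.13). In TPM the ratio of Cyp8b1 to Cyp7a1 was 0.72 with olanzapine and calcifediol, 0.19 with olanzapine and calcitriol, 0.586 with olanzapine and 0.789 with vehicle, so the calcitriol library was the lowest of the 4.

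**Figure D2:**
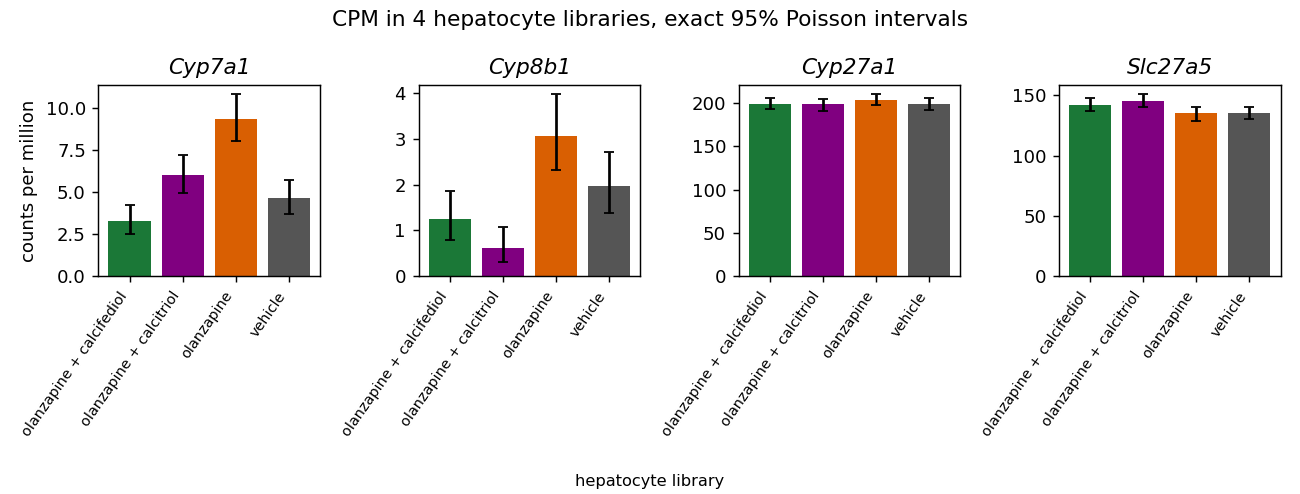
CPM of Cyp7a1, Cyp8b1, Cyp27a1 and Slc27a5 in the 4 hepatocyte libraries, with bars from 0 and exact 95% Poisson intervals of the counts. Cyp7a1 was 3.28, 6, 9.33 and 4.63 CPM from left to right, and Cyp27a1 stayed between 198 and 203 CPM.

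The alternative route differed little between libraries. Cyp27a1 (gene 104086, chr1:74713148-74737897, plus strand), a mitochondrial sterol hydroxylase, had 199 CPM with olanzapine and calcifediol, 198 CPM with olanzapine and calcitriol, 203 CPM with olanzapine and 199 CPM with vehicle. Its log2 ratios were 0.03 (-0.03 to 0.10) for olanzapine against vehicle, -0.03 (-0.10 to 0.03) for added calcifediol and -0.04 (-0.11 to 0.02) for added calcitriol. None was called, and each interval held 0. The enzyme also hydroxylates vitamin D3 and belongs to the same family as the enzyme that makes calcitriol. Cyp7b1 (gene 13123, chr3:18071944-18243890, minus strand), an oxysterol hydroxylase, had 33.4 CPM with olanzapine and calcifediol, 34.4 CPM with olanzapine and calcitriol, 37.8 CPM with olanzapine and 32.2 CPM with vehicle. Its highest library was again olanzapine, with a log2 ratio to vehicle of 0.23 (0.07 to 0.39) that was not called. A small nuclear RNA gene, Gm23686, lies within Cyp7b1 on the same strand without sharing an exon.

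The conjugating enzymes went different ways. Slc27a5 (gene 26459, chr7:12988346-12998192, minus strand) encodes the ligase that activates bile acids with coenzyme A. It had 142 CPM with olanzapine and calcifediol, 145 CPM with olanzapine and calcitriol, 135 CPM with olanzapine and 135 CPM with vehicle. Both co-treated libraries were above both others, by log2 ratios to olanzapine of 0.08 (0.0008 to 0.16) and 0.11 (0.03 to 0.19), and neither was called. Baat (gene 12012, chr4:49489416-49507915, minus strand) transfers the activated bile acid to taurine or glycine. Its level was 66.9 CPM with olanzapine and calcifediol, 77.8 CPM with olanzapine and calcitriol, 101 CPM with olanzapine and 90.2 CPM with vehicle. Both co-treated libraries were below both others. The log2 ratio was -0.60 (-0.70 to -0.49) with calcifediol added to olanzapine, which passed a 1.5-fold threshold and not the 2-fold one, and -0.38 (-0.48 to -0.28) with calcitriol added.

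Slc10a1 (gene 20493, chr12:80953185-80968705, minus strand), the sodium-dependent transporter that takes up conjugated bile acids from blood, had 8.19 CPM with olanzapine and calcifediol, 10.7 CPM with olanzapine and calcitriol, 12.9 CPM with olanzapine and 9.21 CPM with vehicle. The 4 libraries stood in the same order as for Cyp7a1, with olanzapine highest and calcifediol lowest. The log2 ratio was 0.49 (0.20 to 0.78) for olanzapine against vehicle, -0.66 (-0.96 to -0.36) for added calcifediol and -0.27 (-0.55 to 0.0015) for added calcitriol. None was called, and the calcifediol ratio passed at 1.5-fold, where 2.13% of all genes did and 4 of the 9. Against vehicle it was -0.17 (-0.49 to 0.15) with olanzapine and calcifediol and 0.22 (-0.08 to 0.52) with olanzapine and calcitriol, neither called.

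Of the sensing and feedback genes, Nr1h4 (gene 20186, chr10:89454234-89533645, minus strand), the bile acid receptor FXR, was well expressed. It had 85.8 CPM with olanzapine and calcifediol, 93.1 CPM with olanzapine and calcitriol, 101 CPM with olanzapine and 93.4 CPM with vehicle. Its log2 ratios were 0.12 (0.02 to 0.21) for olanzapine against vehicle, -0.24 (-0.34 to -0.14) for added calcifediol and -0.12 (-0.22 to -0.03) for added calcitriol. None was called. Its promoter window lies within the gene, at another start site than the outermost one.

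Nr0b2 (gene 23957, chr4:133553376-133556686, plus strand), the repressor that FXR induces in liver, was nearly undetected. It had 2 counts with olanzapine and calcifediol, 4 with olanzapine and calcitriol, 3 with olanzapine and 2 with vehicle. With a floor of 3 counts, 0.155 to 0.164 CPM in these libraries, no ratio is given. Nr1h4, its inducer, was at 70.9 to 87.6 TPM in the same libraries.

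Fgfr4 (gene 14186, chr13:55152818-55168759, plus strand) had 12.4 CPM with olanzapine and calcifediol, 15.1 CPM with olanzapine and calcitriol, 15.2 CPM with olanzapine and 17.7 CPM with vehicle. It was the only one of the 9 tested genes whose highest library was vehicle. The log2 ratio was -0.21 (-0.45 to 0.02) for olanzapine against vehicle, -0.29 (-0.55 to -0.04) for added calcifediol and -0.01 (-0.25 to 0.23) for added calcitriol, and none was called. Klb, the coreceptor beta-klotho that FGFR4 needs for FGF15, was under the filter with 0.642 TPM with olanzapine and calcifediol, 0.61 TPM with olanzapine and calcitriol, 0.725 TPM with olanzapine and 0.798 TPM with vehicle. Adipocytes had 64.5, 71.2, 84.9 and 75.0 TPM of Klb in the same order of treatments. Klb was singled out after its values were seen. Fgf15 was not listed for hepatocytes.

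**Figure D3:**
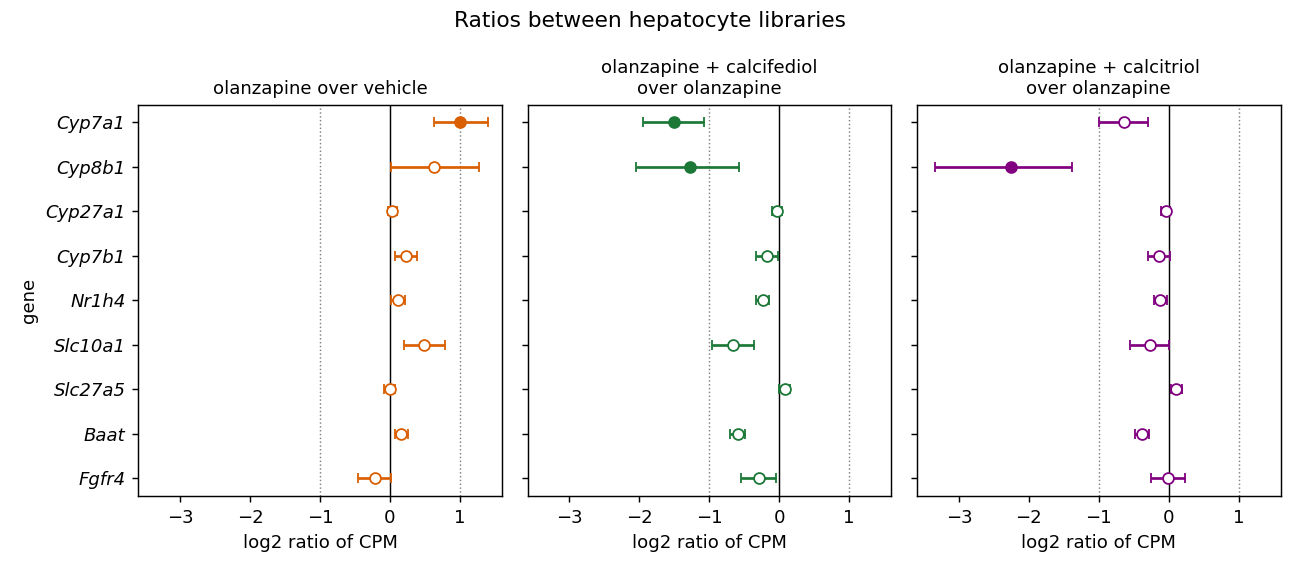
Log2 ratio of CPM between hepatocyte libraries for the 9 tested genes, with exact 95% intervals that cover counting error only. Filled points were called at 2-fold and an FDR of 0.05, and dotted lines mark 2-fold. Cyp7a1 stood at 1.01, -1.50 and -0.64 and Cyp8b1 at 0.63, -1.27 and -2.25 in the 3 panels, and the other 7 genes lay closer to 0.

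Across the 9 tested genes the median log2 ratio was 0.16 for olanzapine against vehicle, where all genes had a median of 0.00. It was -0.29 with calcifediol added, against -0.01 for all genes, and -0.14 with calcitriol added, against 0.00 for all genes. Of the 9 ratios, 7 were above 0 with olanzapine, and 8 were below 0 with each co-treatment. The olanzapine library was the highest of the 4 for 7 of the 9 genes, as it was for 25.6% of all genes. The calcifediol library was the lowest for 5 of the 9 and for 30.8% of all genes. Because both co-treatment ratios have the olanzapine library as denominator and the first ratio has it as numerator, these counts are not independent of each other. Cyp8b1, Nr1h4, Baat and Fgfr4 were below both other libraries with both co-treatments, 4 of 9 genes, against 17.8% of all genes, and Slc27a5 was above them, against 14.4%. For Nr1h4 the calcitriol library had 93.1 CPM against 93.4 CPM with vehicle. For Fgfr4 it had 15.1 CPM against 15.2 CPM with olanzapine. Both of these differences lay within counting error. With vehicle as reference in place of olanzapine, the medians were -0.17 with calcifediol and -0.01 with calcitriol.

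The counting interval left out 0 for 6 of the 9 genes above 0 with olanzapine against vehicle and for 14.8% of all genes. It did so for 7 below 0 with calcifediol added, against 18.4% of all genes, and for 4 below 0 with calcitriol added, against 13.9%. Such intervals hold no spread between cultures. The 10 hepatocyte markers had a median log2 ratio of 0.10 with olanzapine against vehicle, and 7 were above 0, as were 49.6% of all genes. With calcitriol added the median was 0.02, and 5 were above 0, as were 49.9% of all genes. With calcifediol added the median was -0.08, against -0.01 for all genes. Of the 10, 7 were below 0, as were 52.7% of all genes, and none was called. The lowest was Tat, an amino acid enzyme of differentiated hepatocytes, at -0.98 (-1.07 to -0.89), followed by Cps1, the entry enzyme of the urea cycle, at -0.83 (-0.87 to -0.78). Tat had 77.4 CPM with olanzapine and calcifediol, 109 CPM with olanzapine and calcitriol, 152 CPM with olanzapine and 128 CPM with vehicle. Cps1 had 402, 531, 712 and 533 CPM in the same libraries. Both were thus highest with olanzapine alone and lower with calcitriol added too. Their part in the result was not tested.

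The genes whose CPM across the 4 hepatocyte libraries was most like that of Cyp7a1 were Bhmt, Cps1 and Adora1. Likeness was the Euclidean distance between values of log2(CPM + 0.5), centred over the 4 libraries, among 8343 genes with a mean of at least 10 CPM. Bhmt, a methyltransferase of homocysteine metabolism, had 77.2 CPM with olanzapine and calcifediol, 101 CPM with olanzapine and calcitriol, 147 CPM with olanzapine and 91.5 CPM with vehicle. Its distance was 0.354, against 0.467 for Cps1 and 0.478 for Adora1, an adenosine receptor.

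Among 16 other enzymes of bile acid synthesis 13 were tested, 1 of which was called in each co-treatment comparison, beside 0.566% of all genes with calcifediol added and 0.702% with calcitriol added. With olanzapine against vehicle 0 of the 13 were called. The called gene was Akr1d1, the reductase that saturates the sterol ring of bile acid intermediates. Akr1d1 had 34 counts with olanzapine and calcifediol, 42 with olanzapine and calcitriol, 104 with olanzapine and 63 with vehicle. The log2 ratio was -1.66 (-2.28 to -1.11) with calcifediol added and -1.38 (-1.94 to -0.86) with calcitriol added. Olanzapine against vehicle gave 0.76 (0.29 to 1.23), which was not called. As for Cyp7a1, its highest library was olanzapine and its lowest was calcifediol. In all, 20 of the 10963 genes tested were called lower with both co-treatments, and Akr1d1 and Cyp8b1 were among them. Both calls of each gene had the olanzapine library as reference. Against vehicle none of the 13 enzymes, Akr1d1 included, was called with either co-treatment. Scp2, which carries sterols and thiolyses the side chain, was far more abundant, with 282 TPM, 292 TPM, 353 TPM and 297 TPM in the libraries of calcifediol, calcitriol, olanzapine alone and vehicle. Its log2 ratios were 0.23, -0.27 and -0.28 in the 3 comparisons, none called. Abcd3, a peroxisomal importer of bile acid precursors, had ratios of 0.18, -0.25 and -0.17, and Acot8, a peroxisomal thioesterase, of -0.05, 0.20 and 0.23.

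Of 15 transporters 14 were listed and tested. With calcifediol added 1 of the 14 was called, beside 0.566% of all genes. None of the 14 was called with olanzapine against vehicle or with calcitriol added, where 0.356% and 0.702% of all genes were. The called gene was Slco1b2, which takes up unconjugated bile acids. It had 73 counts with olanzapine and calcifediol, 81 with olanzapine and calcitriol, 142 with olanzapine and 119 with vehicle. The log2 ratio was -1.02 (-1.45 to -0.61) with calcifediol added, just past the threshold, and -0.88 (-1.30 to -0.48) with calcitriol added. Against vehicle none of the 14 transporters, Slco1b2 included, was called with either co-treatment, where 0.593% (calcifediol) and 0.538% (calcitriol) of all genes were. Slco genes have close copies, so the sharing of reads among them is uncertain. Abcb11, the export pump for bile salts, and Abcb4, which moves phospholipid into bile, had ratios of 0.34 and 0.33 with olanzapine against vehicle. With calcifediol added these were -0.39 and -0.49, and with calcitriol added -0.36 and -0.34, none called. Abcc4, a basolateral exporter, ran the other way with calcifediol added, at 0.67 (0.43 to 0.90). Slc10a2, the sodium-dependent transporter known from the ileum, had 17.3 to 21.7 TPM in the 4 libraries, above the 8.22 to 13.4 TPM of Slc10a1. It was singled out after its values were seen.

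Of 22 regulators 18 were tested and of 14 target genes of FXR 10 were tested. None of either list was called in the 3 comparisons, where 0.356%, 0.566% and 0.702% of all genes were. Onecut1, a liver transcription factor, had ratios of 0.52 (0.22 to 0.83), -0.84 (-1.17 to -0.52) and -0.40 (-0.69 to -0.10) for olanzapine, added calcifediol and added calcitriol. Nr1d1, a clock repressor, had -0.54, -0.19 and 0.47, and Cebpb, a factor of the acute phase, had -0.44, 0.16 and 0.45. Among targets of FXR, Apoc2, the activator of lipoprotein lipase, had 0.57 (0.50 to 0.63) and Osgin1 0.46 (0.42 to 0.50) with calcifediol added, while Slc51b, a basolateral exporter, had -0.62 (-2.15 to 0.76) from 8 and 12 counts, and Abcb4, also in that list, -0.49. Of the 10 targets 7 were below 0 there, as were 52.7% of all genes. The medians over the target list were 0.03, -0.04 and -0.05. Vdr, the vitamin D receptor, had 1 or 2 counts in each hepatocyte library, against 1939 to 9240 in the C2C12 libraries.

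The last comparison was between cell types, where the 4 treatments served as 4 libraries per cell type. Whether these libraries come from separate cell preparations is not in the labels, so p-values measure only the spread between them. Genes listed in all 3 tables were fitted with edgeR's quasi-likelihood test, with treatment as a covariate, and called at a Benjamini-Hochberg adjusted p of at most 0.05 and a log2 fold change of at least 1. Of 13331 genes, 18.4% were called higher in hepatocytes than in the mean of adipocytes and C2C12 cells. Of the 10 genes 6 are listed in all 3 tables, and 5 of these passed the filter on low counts through the hepatocyte libraries alone. Those 5 had to differ, so no count of calls or fitted value is given for them. Cyp27a1, which also passed without the hepatocyte libraries, was called higher with a log2 fold change of 8.10 (adjusted p = 8.99e-11, edgeR). In C2C12 cells it had 4 counts with olanzapine and calcifediol and 0 with each other treatment. The size of the fold change therefore rests in part on values near the floor. Without that C2C12 library of olanzapine and calcifediol it was 9.53. Summed over treatments, Slc27a5 had 10543 counts in hepatocytes and 2 in adipocytes, a ratio of CPM of 4580 (1270 to 37800), and Baat had 6337 and 2, a ratio of 2750 (762 to 22700). Fgfr4 was 12.9-fold (10.3 to 16.3) higher in hepatocytes than in C2C12 cells. Slc10a1 and Cyp7a1 were at 0 counts in all 8 other libraries. Against a floor of 3 counts per library, Slc10a1 was at least 56.1-fold and Cyp7a1 at least 31.8-fold higher in hepatocytes than in adipocytes.

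Outside hepatocytes, 3 genes of the list had more than 5 counts in a library. In adipocytes Cyp27a1 had 16.2 CPM with olanzapine and calcifediol, 11.3 CPM with olanzapine and calcitriol, 9.33 CPM with olanzapine and 9.53 CPM with vehicle. Summed over treatments it was 17.1-fold (15.9 to 18.4) higher in hepatocytes than in adipocytes. Calcifediol added to olanzapine gave a log2 ratio of 0.79 (0.51 to 1.09) for adipocyte Cyp27a1, not called at 2-fold and called at 1.5-fold like 4.72% of all genes, while hepatocyte Cyp27a1 gave -0.03. Scaled to Rplp0, which shifted the median of all adipocyte genes to -0.38, the ratio was 0.42 and stood 0.81 above that median. Cyp7b1 was the nearest in level between hepatocytes and adipocytes of the genes above the floor of 3 counts in both. Its adipocyte level was 11.3 CPM with olanzapine and calcifediol, 11.1 CPM with olanzapine and calcitriol, 12.8 CPM with olanzapine and 15.5 CPM with vehicle, and over all treatments hepatocytes were 2.73-fold (2.52 to 2.95) higher. Of the 2 genes tested in adipocytes, 0 were called in each comparison, where 1.22%, 1.52% and 0.974% of all genes were called with olanzapine, added calcifediol and added calcitriol.

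In C2C12 cells 1 gene of the list was tested, Fgfr4, a receptor also known from muscle precursors. It had 12 counts with olanzapine and calcifediol, 6 with olanzapine and calcitriol, 31 with olanzapine and 35 with vehicle. In TPM these were 0.535, 0.234, 1.31 and 1.26. Fgfr4 thus passed the filter of 1 TPM only through the libraries of olanzapine alone and vehicle, which favours a lower ratio with each co-treatment. Fgfr4 was called lower with calcifediol added, at -1.30 (-2.43 to -0.33), and with calcitriol added, at -2.29 (-3.93 to -1.10). Those comparisons called 11.6% and 8.36% of all genes in C2C12 cells. Olanzapine against vehicle, which called 0.313%, gave -0.13 (-0.88 to 0.61) and no call. The calcifediol call was lost at an FDR of 0.001. Cyp8b1, Cyp7b1, Nr1h4 and Nr0b2 were not listed in the C2C12 table, which still lists 916 genes at 0 in all 4 libraries, so no level is given for them.

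**Figure D4:**
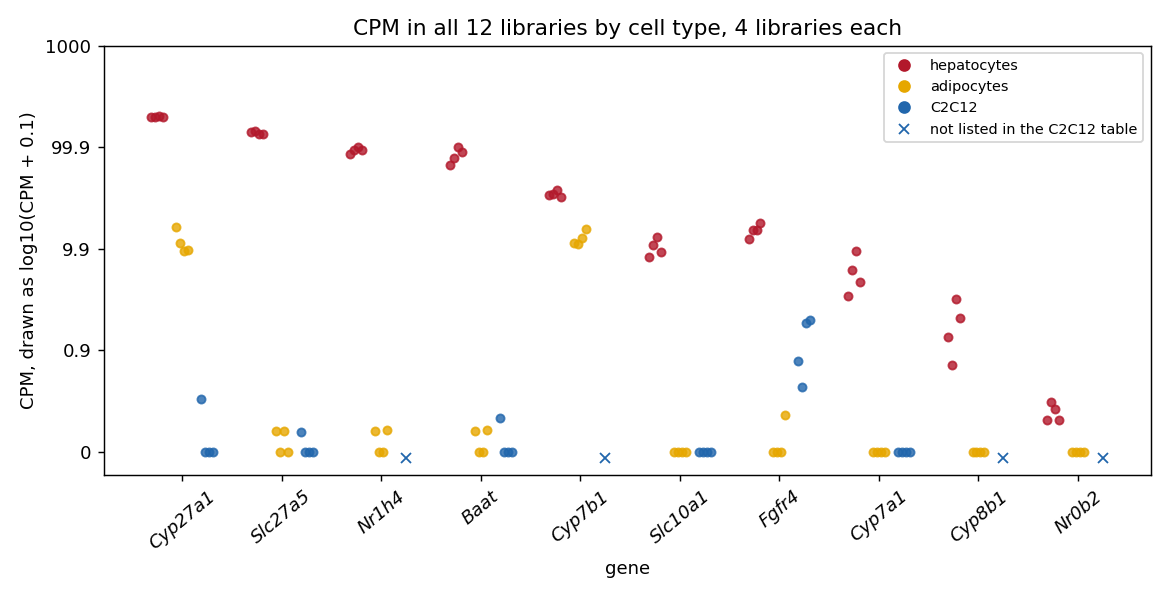
CPM of the 10 genes in all 12 libraries, drawn as log10(CPM + 0.1), with 4 points per cell type running from olanzapine with calcifediol on the left to vehicle on the right, and a cross where the C2C12 table does not list the gene. CPM compares cell types within a gene. Cyp27a1 and Cyp7b1 of adipocytes and Fgfr4 of C2C12 cells are the genes outside hepatocytes with more than 5 counts in a library.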

How the data were processed

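RNA of 12 cultures was sequenced on DNBseq. The authors filtered reads with SOAPnuke, used HISAT 2.0.4 and Bowtie2 2.2.5 for alignment to GRCm38.p6, and counted with RSEM 1.2.8. The deposited expected counts per gene are unscaled, 5.35% to 6.98% of them not whole, and were rounded here. The FPKM values deposited by the authors are scaled to length and mapped reads, and TPM was recomputed from them. The deposited TPM columns, 12 in all, were not used.

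Ratios were taken between libraries scaled to total counts, with a pseudocount of 0.5. The two-sided Audic-Claverie p-values were adjusted by the method of Benjamini and Hochberg over the genes that reached 1 TPM in some library of that cell type. Its thresholds, 2-fold and an FDR of 0.05, are those of the study. Intervals of ratios are exact (Clopper-Pearson, 95%), and Poisson intervals of levels are exact. The cell types were compared with edgeR 4.0.16 (TMM, filterByExpr), and with DESeq2 1.42.0 as an alternative, in R 4.3.3. The other steps used Python 3.11.15 with scipy 1.17.1. Both procedures were run on simulated counts with changes set beforehand. The simulation for the ratios held counting error only, so it is no check on spread between cultures. Total counts of 15641434 to 19348338 put 3 counts at 0.155 to 0.192 CPM.

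The genes and lists were chosen with earlier results of these data known. Named were the 10 genes, and of each other list every gene called in a hepatocyte comparison plus the 3 with the largest ratio at a TPM of at least 5 in a compared library, the 3 genes most like Cyp7a1, and Vdr. Marker genes, Klb, Slc10a2 and Slc51b were named after their values were seen. Other scalings, pseudocounts, filters, thresholds and references were tried, and each library was left out of the fit between cell types. Gene coordinates are from RefSeq on GRCm38.p6 and overlaps from GENCODE.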

Additional observations from a re-analysis of the deposited data

Results flagged for a closer look

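Cyp7b1, the hydroxylase of the alternative route, had ratios of opposite sign in 2 cell types for olanzapine against vehicle. Its log2 ratio was 0.23 (0.07 to 0.39) in hepatocytes and -0.27 (-0.54 to -0.0016) in adipocytes, with 1 library per condition. The difference between the cell types was not tested, and neither ratio was called. Scaled to Rplp0 the adipocyte ratio was 0.11, while the median of all adipocyte genes was then 0.35.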

How the results depend on the processing

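No paired analysis was possible because each condition has 1 library in a cell type and the labels give no replicate numbers. A test of treatment over all 12 libraries, and its alternatives, gave no value, because none of the 10 genes has a TPM of at least 1 in every cell type.

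Of 126 alternatives for counts of calls and medians, 114 stayed within a set margin and 12 did not. The margin was 1.5 times the count, or for a median the counting interval of the 1 gene nearest to it. This is a loose measure for medians. With calcitriol added that gene was Cyp7b1 (-0.29 to 0.02), so the change from -0.14 to -0.01 with vehicle as reference was within it. In hepatocytes the number of called genes with olanzapine against vehicle, 1, was 0 with a pseudocount of 5 counts and 0 with a TPM filter of 10. With calcifediol added, 2 became 0 with a TPM filter of 10, 4 at a fold of 1.5, 1 at an FDR of 0.001 and 0 against vehicle. With calcitriol added, 1 became 0 with a TPM filter of 10 and 2 at a fold of 1.5. The TPM filter of 10 removes Cyp7a1 and Cyp8b1 by construction. The median of 0.16 with olanzapine became a mean of 0.27, and that of -0.14 with calcitriol a mean of -0.42. In adipocytes 0 with calcifediol became 1 at a fold of 1.5, and in C2C12 cells 1 with calcifediol became 0 at an FDR of 0.001. In C2C12 cells the TPM filter of 10 left no gene of the list and gave no value.

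A filter that ignores the hepatocyte calcitriol library, chosen after seeing the data, gave the same counts of 1 and 2 for olanzapine and for calcifediol. Of 153 alternatives for single genes in hepatocytes, 11 fell outside the counting interval, and 10 of these were among the 18 with vehicle as reference. There 5 ratios turned sign, none of them called, among them Cyp7a1 with calcitriol (0.37), Slc10a1 with calcitriol (0.22) and Cyp7b1 with calcifediol (0.05) and calcitriol (0.09). The number of genes called higher in hepatocytes is set by the filter, so its alternatives say nothing about stability. Cyp8b1, with 12 to 56 counts, and Nr0b2, with 2 to 4, are limited by depth.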
